A study of Mus musculus with 6 samples.

Results

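The regions described here are the 5hmC-Seal peaks of mouse embryonic stem cells (mESCs) that were called at the same place in WT and in D2018A cells. A WT peak was a member if it overlapped a D2018A peak on the same chromosome by at least 1 bp, and the D2018A peaks that it overlapped were members too. Chromosomes 5, 8 and X were left out. This gave 109 of 1230 WT peaks and 110 of 839 D2018A peaks, or 219 of 2069 peaks in all, which formed 111 overlapping pairs at 108 loci. The members were chosen by the overlap of the 2 lists, so overlap, score and width are given below as descriptions of the members and were not tested.

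5-Hydroxymethylcytosine (5hmC) is made from 5-methylcytosine (5mC) by the TET dioxygenases, which can oxidize it further. In embryonic stem cells, where TET1 and TET2 are expressed, 5hmC is known from gene bodies, enhancers and promoters with intermediate CpG content. OGT, the enzyme that attaches O-GlcNAc to nuclear and cytoplasmic proteins, binds TET1 stably, and the D2018A change of TET1 weakens that binding.

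Both groups were made from the mESC line LF2 by editing both copies of Tet1 and were grown in LIF with 10% serum. WT cells carried TET1 with a C-terminal FLAG tag (lines 2 and 5). D2018A cells carried the same tag and the aspartate to alanine change (lines 7 and 8). The lines are clonal. The study describes a deletion that its WT cells carry and its D2018A cells do not. It examined gene expression and 5mC levels in control cells that keep an intact copy of the region. For those measures, the study attributes the differences to the TET1 change and not to the deletion. The 2 lists of 5hmC peaks include no such control cells, so within them a clonal difference and the TET1 change cannot be told apart. In 5hmC-Seal, 100 ng of fragmented DNA was labelled at 5hmC with an azide glucose, coupled to biotin, captured on streptavidin and amplified in 13 cycles. Each genotype also had 1 input library that was neither labelled nor captured. The labelled tissue could not be checked against marker genes because only peak positions and scores were used.

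The authors deposited 1 list of MACS peaks per genotype, which covers both of its lines. Each peak has a score, taken as 10 times the negative log10 of the p-value, the form in which MACS 1.4 writes it, so a higher score means a smaller p. Scores began at 50.04 in WT and at 50.02 in D2018A. A score depends on the depth and background of its own libraries, so each peak was ranked within its whole list, with rank 1 for the highest score. The percentile runs from 0 for the last rank to 100 for the first. With 1 list per genotype there is no spread between lines, and the sequencing depth of the lists is unknown. A rank that differs between the lists is therefore not a measured difference in 5hmC. Positions are on mm9, the build the authors aligned to. Peaks were not assigned to genes and no sequence is shown, because the genome and annotation at hand were of another build.

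On the chromosomes kept, 109 of 830 WT peaks were shared (13.1%, 95% Wilson interval 11.0 to 15.6%). Of 588 D2018A peaks there, 110 were shared (18.7%, interval 15.8 to 22.1%). These intervals cover counting error only. The other 721 WT peaks and 478 D2018A peaks had no partner. Chromosomes 5, 8 and X held a further 78 WT and 79 D2018A peaks with a partner, which are not described. The members made up 16.1% of the bases covered by WT peaks on the chromosomes kept and 24.6% of those covered by D2018A peaks. Together the WT members spanned 85357 bp and the D2018A members 57152 bp, of which 51864 bp were common to both. The common bases were 60.8% of the WT members' extent and 90.7% of the D2018A members' extent.

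The shared loci lay on all 17 chromosomes kept, in unequal numbers. Chromosomes 7 and 12 held 13 loci each. Chromosomes 2, 15 and 17 held 10 loci each, and chromosome 11 held 8. Chromosomes 4 and 19 held 6 each, chromosomes 1, 10 and 18 held 5 each, chromosomes 9 and 16 held 4 each, chromosome 3 held 3, and chromosomes 6, 13 and 14 held 2 each. As a share of the WT peaks on the same chromosome, the members ranged from 7.14% on chromosome 6 (2 of 28 peaks, interval 1.98 to 22.6%) to 13 of 59 peaks on chromosome 12 (22.03%, 13.4 to 34.1%). For D2018A the lowest share was again on chromosome 6 (8.70%, 2 of 23 peaks, 2.42 to 26.8%) and the highest on chromosome 15 (34.5%, 10 of 29 peaks, 19.9 to 52.7%). These extreme intervals overlap in both lists, so an order of the chromosomes could not be read at these numbers. Chromosome 4 held 82 WT peaks, the most among the chromosomes kept, and 6 of them were shared (7.32%, 3.40 to 15.1%). That interval holds the 13.1% found for all WT peaks on the chromosomes kept.

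**Figure D1:**
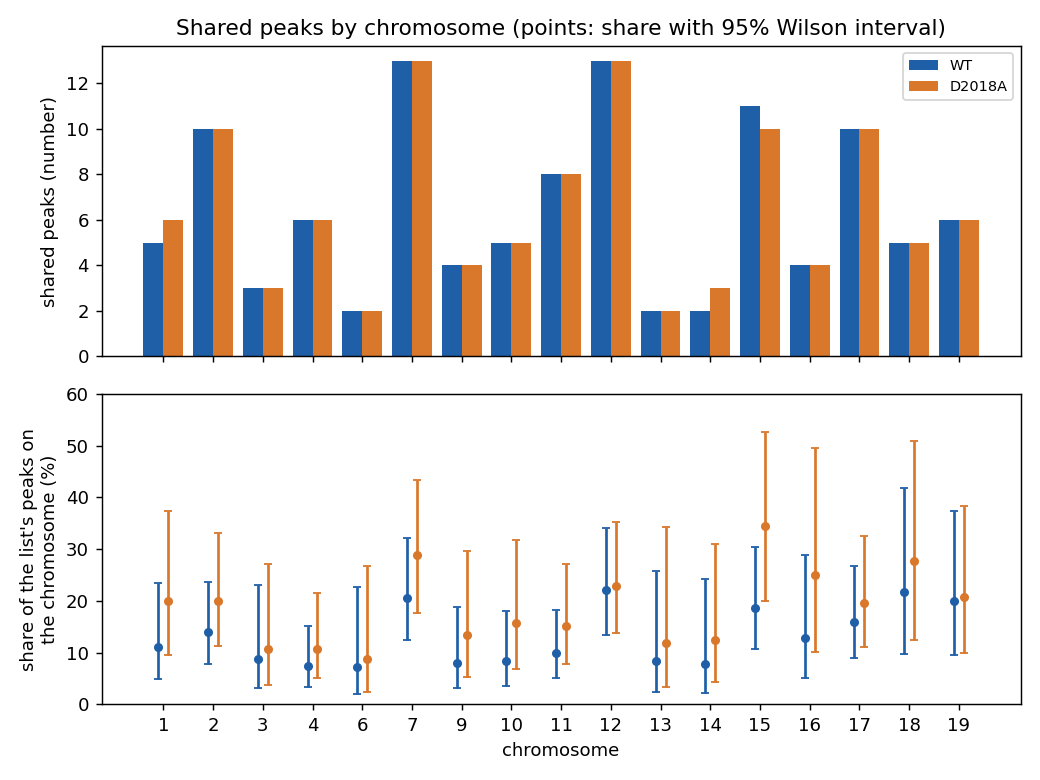
Number of shared peaks on each of the 17 chromosomes kept (upper panel, bars, WT in blue and D2018A in orange) and their share of all peaks of the same list on that chromosome in percent (lower panel, points with 95% Wilson intervals). Chromosomes 7 and 12 hold the most shared peaks, 13 in each list, and the intervals of the shares overlap within each list, some of them only narrowly.

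The strongest shared peaks stood near the top of both lists at only a few loci. In 3 pairs both peaks scored 100 or more. The first was chr12:85909747-85914188, the first-ranked WT peak (score 394.35, width 4442 bp). Its D2018A partner at chr12:85910498-85911865 had a score of 107.2 and rank 19 and covered 1368 bp, all of them inside the WT peak. The second was chr3:102739210-102740308 (WT score 184.87, rank 3, 1099 bp), whose D2018A partner at chr3:102739186-102740210 had a score of 158.81, rank 2 and a width of 1025 bp. These 2 peaks had 1001 bp in common, and their percentiles, 99.8 in WT and 99.9 in D2018A, were the closest of all 111 pairs. The third was the first-ranked D2018A peak, chr1:133025418-133026809 (score 203.94, 1392 bp). It lay inside the WT peak chr1:133025362-133026829 (score 108.93, rank 46, 1468 bp), and this pair had the highest Jaccard index, the shared bases divided by the bases of either peak, at 0.948.

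Other members with high WT scores had partners of lower score. The WT peak chr12:110271482-110272799 had a score of 174.97 and rank 5. Its partner, chr12:110271435-110272077, had a score of 90.93, rank 49 and 643 bp against 1318 bp in WT. The WT peak chr14:79700453-79701621 (score 160.28, rank 8) met 2 D2018A peaks, described below. The WT peak chr15:78503517-78504849 (score 136.09, rank 13) shared 327 bp with a D2018A peak of score 74.36 and rank 119. The WT peak chr11:59062740-59063656 (score 133.61, rank 15) enclosed a D2018A peak of 326 bp with a score of 59.63 and rank 336. All 6 of the highest-scoring WT members had a D2018A partner in the upper 50% of its list, and 5 of the 6 partners were above percentile 75.

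Among the members with the highest D2018A scores, the WT partner often ranked far lower. The D2018A peak chr3:86888602-86889248 had a score of 129.09 and rank 3, whereas the WT peak chr3:86888511-86889140 had a score of 53.1 and rank 956. At chr11:3049480-3051609 the D2018A score was 126.73 (rank 5) and the WT peak around it, chr11:3049372-3051817, scored 59.48 (rank 593). The D2018A peak chr1:73953806-73954224 (score 118.56, rank 9) was paired with a WT peak of score 57.19 and rank 702. The D2018A peak chr10:69448890-69449300 (score 115.63, rank 12) was paired with a WT peak of score 63.86 and rank 441. Of the 6 highest-scoring D2018A members, 2 had a WT partner above percentile 75, those at chr1:133025418 and chr3:102739186.

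Over all pairs, the scores of the lists were only loosely related. Spearman's rho between the WT and the D2018A scores was 0.24 over 111 pairs. This is a description across peaks, which share their libraries, and pairs at 3 loci also share a peak. With both scores at least 60 it was 0.51 over 43 pairs, with both at least 70 it was 0.33 over 18 pairs, and with both at least 80 it was -0.018 over 7 pairs, where the limits of 70 and 80 were chosen after seeing the data. The percentiles differed by a median of 20.6 points (interquartile range 9.73 to 44.0). They lay within 10 points of each other in 29 pairs (26.1%) and more than 50 points apart in 19 (17.1%). The D2018A percentile was the higher one in 61 pairs (55.0%, 45.7 to 63.9%) and the WT percentile in 50 (45.0%, 36.1 to 54.3%). With 1 list per genotype the pairs are not replicates, so this balance was not tested. Both peaks were at percentile 75 or above in 21 pairs, both at 25 or below in 4, and one at 75 or above with the other at 25 or below in 7. Both were at percentile 50 or above in 52 pairs and both below it in 15. Only the WT peak was there in 18 pairs and only the D2018A peak in 26. Taken singly, the WT peak was at percentile 75 or above in 37 of the 111 pairs and the D2018A peak in 46. High ranks were thus common in each list on its own, which by itself raises the number of pairs high in both. Whether the lists agreed beyond that was not tested.

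**Figure D2:**
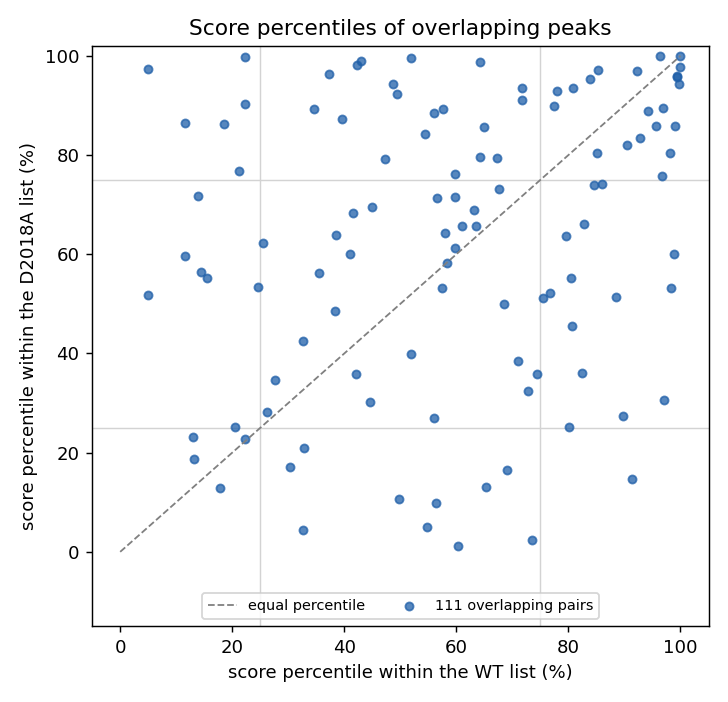
Score percentile of the WT peak (horizontal axis, %) against that of the D2018A peak (vertical axis, %) for the 111 overlapping pairs, each percentile taken within the whole list. The dashed line marks equal percentiles and the grey lines percentiles 25 and 75. The points spread over most of the field (Spearman's rho 0.24), with 21 pairs in the upper right corner and 4 in the lower left. Taken singly, the WT peak is at percentile 75 or above in 37 pairs and the D2018A peak in 46.

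The widest gaps in rank ran in both directions. The largest was at chr17:30885067-30886825, a D2018A peak of 1759 bp with a score of 105.45 and rank 24. The WT peak inside it, chr17:30885423-30886194, had 772 bp, a score of 50.63 and rank 1168 of 1230, 92.2 percentile points lower. The pair at chr3:86888602, given above, followed with 77.5 points. At chr1:120734089-120734504 the D2018A peak had rank 114 (score 74.87) and its WT partner rank 1087 (score 51.6), and at chr15:77825640-77826096 the ranks were 83 (score 80.26) and 956 (score 53.1). In the other direction, the WT peak chr9:108017473-108018658 had rank 108 (score 92.06) and its D2018A partner, chr9:108018169-108018450, had rank 716 (score 51.52), 76.6 points lower. The WT peak chr10:98571991-98572578 had rank 327 (score 68.46) against 819 of 839 (score 50.36). The WT peak chr12:87443598-87445689 had rank 37 (score 112.99) against 583 (score 53.92), and chr10:90890756-90891521 had rank 128 (score 88.12) against 609 (score 53.39). In 11 pairs the D2018A percentile was higher by more than 50 points, and in 8 the WT percentile was.

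Members scored higher than the lists they came from. The median score of the WT members was 61.7 (95% binomial interval of the median 60.4 to 65.4), against 58.6 for all 830 WT peaks on the same chromosomes and 58.0 for the 721 without a partner. For D2018A the median was 61.8 (59.4 to 66.4) against 57.7 for all 588 and 56.3 for the 478 without a partner. A score under 60 was found in 42 of 109 WT members (38.5%) and 48 of 110 D2018A members (43.6%), against 57.0% of the WT and 67.4% of the D2018A peaks without a partner. The lowest-scoring members were at 50.63 in WT and 50.15 in D2018A, close to the lowest score called in either list. Scores of 100 or more were found in 13 of 109 WT members (11.9%), against 24 of 721 WT peaks without a partner (3.33%). In D2018A they were found in 12 of 110 members (10.9%), against 7 of 478 peaks without a partner (1.46%).

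The share of peaks with a partner was highest among the top ranks. On the chromosomes kept, 7 of the 10 highest-scoring WT peaks were shared (interval of the share 39.7 to 89.2%), then 9 of the top 20, 16 of the top 50 and 24 of the top 100 (24.0%, 16.7 to 33.2%). In D2018A 6 of the top 10 were shared (31.3 to 83.2%), 12 of the top 20, 22 of the top 50 and 37 of the top 100 (37.0%, 28.2 to 46.8%). When each list was divided into quintiles by score, the shared part went from 6.02% (3.30 to 10.7%) in the lowest to 21.1% (15.6 to 27.9%) in the highest WT quintile. In D2018A it went from 9.40% (5.33 to 16.1%) to 35.6% (27.5 to 44.6%).

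Width moved with the score, and a wide peak also has more room to be overlapped. Whether width accounts for the higher share among high scores was not tested. Across WT peaks on the chromosomes kept, Spearman's rho between score and width was 0.51 (n = 830), and across D2018A peaks it was 0.45 (n = 588). By width, the shared part was 5.42% (2.88 to 9.98%) in the narrowest and 22.3% (16.6 to 29.2%) in the widest WT quintile, but it was not a steady rise, with 14.5%, 13.3% and 10.2% in the quintiles between. The D2018A values went from 8.55% (4.71 to 15.0%) through 11.9%, 17.1% and 19.5% to 36.4% (28.3 to 45.4%). Among WT peaks narrower than the median of 583 bp, 22 of 284 with a score below the median of 58.6 were shared (7.75%, 5.17 to 11.4%) and 24 of 129 with a higher score (18.6%, 12.8 to 26.2%). Among the wider WT peaks these shares were 12.2% (16 of 131, 7.66 to 18.9%) and 16.4% (47 of 286, 12.6 to 21.2%), whose intervals overlap. Among D2018A peaks narrower than 350.5 bp, 7.77% of those with a lower score (15 of 193, 4.77 to 12.4%) and 20.8% of those with a higher score (21 of 101, 14.0 to 29.7%) were shared. Among the wider D2018A peaks the shares were 16.8% (17 of 101, 10.8 to 25.3%) and 29.5% (57 of 193, 23.5 to 36.3%), and these intervals overlap narrowly. Among the narrower peaks of either list, the intervals for lower and higher scores did not overlap.

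**Figure D3:**
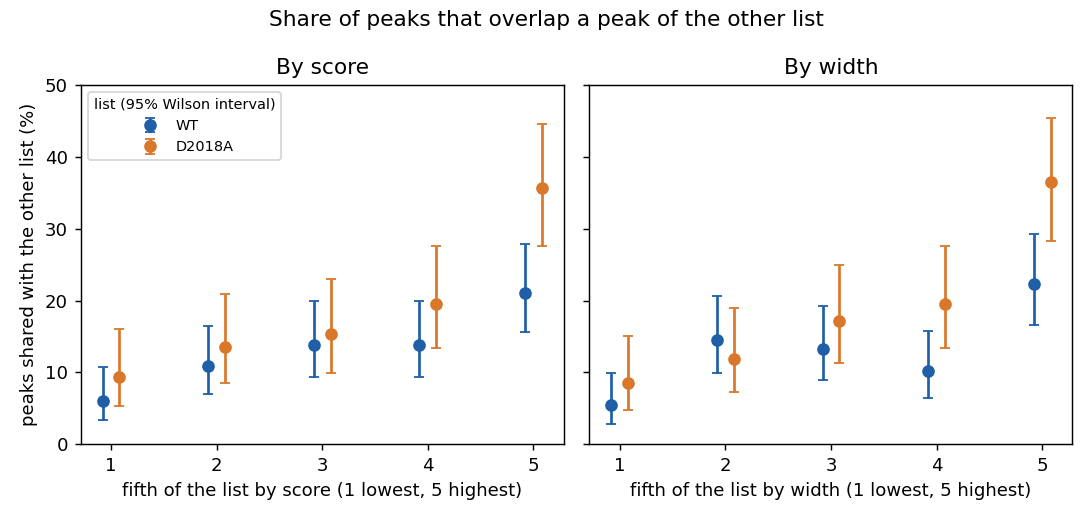
Percentage of peaks that overlap a peak of the other list (vertical axis) in quintiles of the list by score (left) and by width (right), for WT (blue) and D2018A (orange) on the chromosomes kept, with 95% Wilson intervals. In the highest quintile by score 21.1% of WT and 35.6% of D2018A peaks are shared, against 6.02% and 9.40% in the lowest.

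Within a pair, the WT peak was nearly always the wider one. WT members had a median width of 619 bp (interval 575 to 673 bp, range 358 to 4442 bp) and D2018A members of 417.5 bp (380 to 442 bp, range 212 to 3795 bp). The WT peak was wider in 104 of 111 pairs (93.7%, 87.6 to 96.9%) and at least 2 times as wide in 26. The median ratio of WT to D2018A width was 1.52 (1.33 to 1.67). The same direction was present in the peaks without a partner, with medians of 580 bp in WT and 343.5 bp in D2018A, so it was not particular to the members. Over the whole lists, WT peaks started at 281 bp and D2018A peaks at 105 bp. Whether the settings of the caller or the fragment lengths differed between the lists was not tested.

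The ratio of the widths moved with the difference in rank, with a Spearman's rho of 0.31 between the ratio and the difference of the percentiles over the 111 pairs. Over the same pairs score and width were related within each list, with a rho of 0.39 in WT and 0.48 in D2018A. The values below are therefore not separate from that relation and describe the pairs only. In the 50 pairs ranked higher in WT, the WT peak was wider in all 50, with a median ratio of 1.67 (1.50 to 1.95). In the 61 pairs ranked higher in D2018A it was wider in 54, with a median ratio of 1.33 (1.18 to 1.55). In the 29 pairs whose percentiles lay within 10 points, it was wider in all 29, with a median ratio of 1.50 (1.24 to 1.89). The 7 pairs with the wider peak in D2018A were all ranked higher in D2018A. They were the pair at chr17:30885067 with a ratio of 0.439, chr18:80313632-80314330 with 0.794 (D2018A score 110.93, WT score 57.01), chr12:85597451-85598633 with 0.801 (90.98 and 58.58), the pair at chr1:73953806 with 0.957 and the pair at chr3:86888602 with 0.974. The remaining pairs were chr17:30940696-30941241 with 0.910 and chr2:168094288-168094851 with 0.984, the latter named after its values were seen. The largest ratios were at chr9:108017473 (4.21), the first-ranked WT peak on chromosome 12 (3.25) and chr12:87443598 (3.07).

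**Figure D4:**
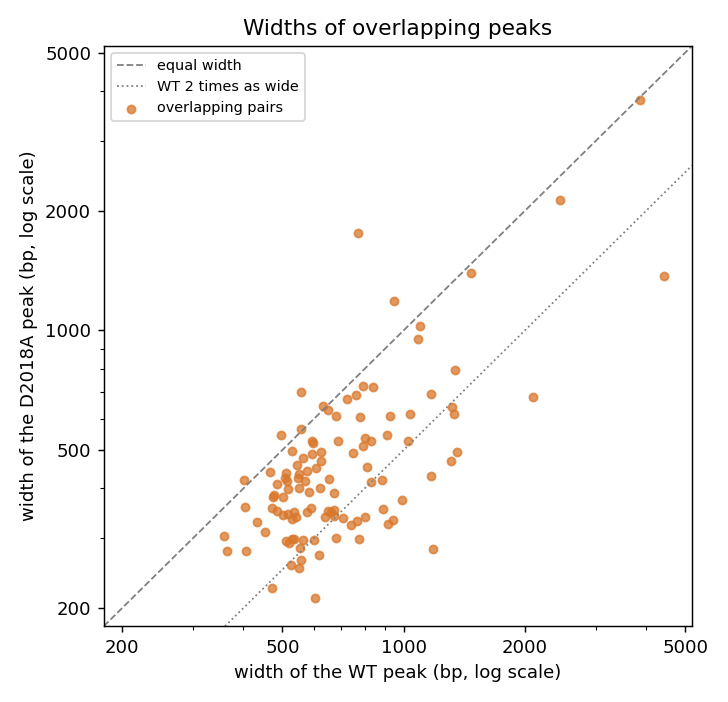
Width of the WT peak (horizontal axis, bp, log scale) against width of its D2018A partner (vertical axis, bp, log scale) for the 111 pairs. The dashed line marks equal width and the dotted line a WT peak 2 times as wide. Of the 111 points, 104 lie on the WT side of the dashed line.

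The widest members of both lists included a pair of neighbours at the low-coordinate end of chromosome 11, the end nearest the centromere in mouse. They were the first peaks of that chromosome in either list. The WT peak chr11:3034265-3038121 (3857 bp, score 99.79, rank 72) and the D2018A peak chr11:3032549-3036343 (3795 bp, score 77.81, rank 95) were almost equally wide but shifted, with 2079 bp in common and centres 1747 bp apart, the largest shift of all pairs. The neighbouring pair at chr11:3049480, given above, had widths of 2446 bp in WT and 2130 bp in D2018A. The third-widest D2018A member was the one at chr17:30885067. At the other extreme, the narrowest WT members were chr19:47465426-47465783 (358 bp, score 54.03), chr11:95347049-95347413 (365 bp, score 61.36) and the WT peak at chr1:73953797 (401 bp). The narrowest D2018A members were chr10:127159167-127159378 (212 bp, score 53.1), chr3:88286364-88286588 (225 bp, score 60.06) and chr2:31353143-31353394 (252 bp, score 79.03), each of them wholly inside its WT partner.

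Most pairs were nested and closely centred. The D2018A peak lay wholly inside the WT peak in 74 of 111 pairs (66.7%, 57.5 to 74.7%), the WT peak inside the D2018A peak in 3, and the peaks were staggered in 34. In 74 pairs the centres lay within 100 bp of each other, and in 18 they were more than 200 bp apart. The median distance between centres was 58 bp (43.5 to 84 bp). The WT peak reached past the D2018A peak by a median of 88 bp at the low-coordinate end (56 to 111 bp) and 91 bp at the high-coordinate end (68 to 107 bp). These medians were taken for each end on its own. Within a pair the ends could differ, as at chr12:85909747 with 751 and 2323 bp. The median overlap was 388 bp, the median covered part of the WT peak was 64.4%, and that of the D2018A peak was 100%, each taken over all pairs on its own. The median Jaccard index was 0.607 (0.556 to 0.657). After the pair at chr1:133025362, the highest indices were at chr11:69638791-69639512 (0.928, centres 1 bp apart, WT score 61.17, D2018A score 78.65) and chr2:35575967-35576431 (0.928, WT score 63.55, D2018A score 61.74).

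**Figure D5:**
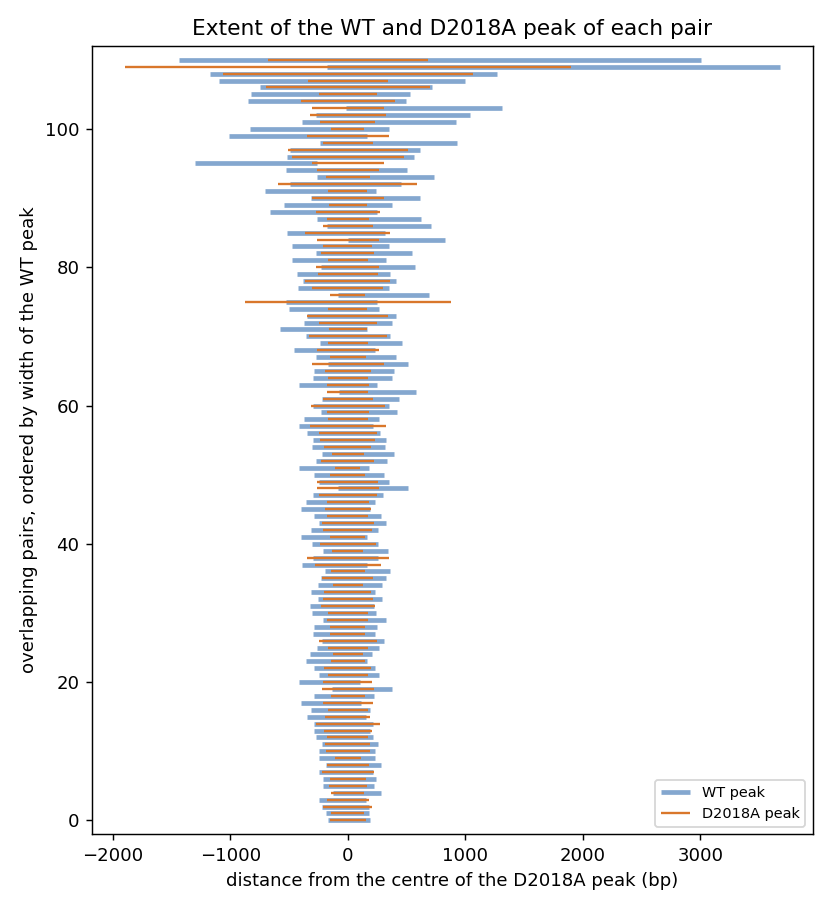
Extent of the WT peak (blue) and of the D2018A peak (orange) of each pair, as distance in bp from the centre of the D2018A peak (horizontal axis), for the 111 pairs ordered by WT width (vertical axis). The D2018A peak lies wholly inside the WT peak in 74 pairs, and the WT peak extends to either side of it by a median of 88 and 91 bp.

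At 3 loci the pairing was not 1 to 1. The WT peak chr14:79700453-79701621 (1169 bp) covered the D2018A peak chr14:79700479-79700909 (score 98.29, rank 35) and part of chr14:79701117-79701808 (score 96.19, rank 37), so a region called as 1 strong peak in WT was called as 2 similarly ranked peaks in D2018A. The WT peak chr1:120733819-120734649 (score 51.6, rank 1087) likewise met chr1:120733557-120734083 (score 59.46, rank 340) and chr1:120734089-120734504 (score 74.87, rank 114). On chromosome 15 the reverse was found. The D2018A peak chr15:78503229-78503843 (score 74.36, rank 119) met the WT peaks chr15:78502232-78503270 (score 105.92, rank 55) and chr15:78503517-78504849 (score 136.09, rank 13), and it filled the gap between them. The first of these overlaps was 42 bp, the smallest of all pairs. The next smallest were 212 bp at chr10:127159167 and 225 bp at chr3:88286364, both the whole of a narrow D2018A peak.

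Few pairs therefore sat near the limit of the rule. Just outside it, the WT peak chr2:33963405-33964261 (score 59.46) and the D2018A peak chr2:33962978-33963377 (score 65.85) were 27 bp apart. The WT peak chr1:75472024-75472882 (score 88.4) and the D2018A peak chr1:75471516-75471962 (score 52.64) were 61 bp apart, and chr17:27250303-27251067 (score 53.86) and chr17:27251223-27251557 (score 60.98) were 155 bp apart. Of the 721 WT peaks without a partner, 12 had a D2018A peak within 1000 bp and 53 within 10000 bp.

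Shared loci were sometimes close to each other. Another shared locus lay within 10 kb of 9 of the 108 loci (8.33%, 4.45 to 15.1%) and within 100 kb of 19 (17.6%, 11.6 to 25.8%). The group with the most loci was on chromosome 17, where 4 loci lay between 30885067 and 30941241, a span of 56175 bp. It opened with the pair of the largest rank gap, and 3 further loci stood together at its end. These were the WT peaks chr17:30937256-30938033 (score 76.05, D2018A score 54.72), chr17:30939882-30940672 (57.73 and 63.52) and chr17:30940683-30941179 (55.89 and 57.7). Within 100 kb of its first locus there were 7 D2018A peaks and 1 WT peak without a partner, and within 100 kb of each of the other 3 loci there were 4 and 3.

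Chromosome 12 had 3 such groups. In the first, chr12:77665378-77665880 and chr12:77678581-77679231 had WT scores of 54.53 and 69.81 and D2018A scores of 51.96 and 58.31. In the second, chr12:85496926-85497763 (WT score 65.97, D2018A score 51.92) and chr12:85498980-85499739 (52.08 and 58.97) lay next to each other and within 100 kb of the pair at chr12:85597451, in which the D2018A peak was the wider one. In the third, chr12:87661152-87662491 and chr12:87729564-87730877 had WT scores of 60.29 and 66.75 and D2018A scores of 72.08 and 55.08. All 13 loci of this chromosome lay at or past 77665378, and the first peaks of the lists were at 3907374 in WT and 16551368 in D2018A. The share of all peaks of the chromosome past that position was not computed, so this is not read as particular to the members.

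On chromosome 9 the WT peak with the largest width ratio had a neighbour, chr9:108016630-108017379, with a WT score of 89.7 (rank 118) and a D2018A score of 70.22 (rank 151). The 2 WT peaks there had nearly the same score, while the D2018A partners ranked 151 and 716. On chromosome 18, chr18:38357282-38357954 and chr18:38358608-38359226 had WT scores of 51.85 and 53.62 and D2018A scores of 52.19 and 60.72. On chromosome 19, chr19:24185730-24186299 (WT score 55.69, D2018A score 100.38) and chr19:24205358-24205963 (112.32 and 79.04) were ranked in opposite order by the lists. The chromosome 12 groups other than the adjacent loci at chr12:85496926 and this chromosome 19 group were named after their values were seen.

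Any other peak, of either list, lay within 10 kb of 29 shared loci (26.9%, 19.4 to 35.9%), of 118 of 721 WT peaks without a partner (16.4%, 13.8 to 19.2%) and of 86 of 478 D2018A peaks without one (18.0%, 14.8 to 21.7%). Within 100 kb the shares were 49.1% (39.8 to 58.4%), 44.2% (40.7 to 47.9%) and 46.4% (42.0 to 50.9%), whose intervals overlap. At 10 kb the interval of the shared loci overlapped that of the D2018A peaks and lay just above that of the WT peaks. Near the shared loci, a WT peak without a partner lay within 10 kb of 10 of the 108 loci (9.26%, 5.11 to 16.2%). A D2018A peak without one lay within 10 kb of 15 (13.9%, 8.60 to 21.7%), and these intervals overlap. Within 100 kb the order was the other way, with 34 loci for WT (31.5%) and 30 for D2018A (27.8%).

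Over all chromosomes kept, the D2018A percentile was higher in 61 of 111 pairs, and the counts by chromosome were as follows. On chromosome 2 the D2018A percentile was higher in 8 of 10 pairs, on chromosome 11 in 6 of 8, on chromosome 18 in 4 of 5 and on chromosome 3 in all 3. On chromosome 14 the WT percentile was higher in all 3 pairs, 2 of which share a WT peak, and on chromosomes 9 and 16 it was higher in 3 of 4. On chromosome 7 the WT and D2018A lists took 7 and 6 of 13 pairs, on chromosome 12 7 and 6 of 13, and on chromosome 17 5 and 5 of 10. In the same order they took 2 and 4 pairs on each of chromosomes 1 and 4, and 2 and 3 on chromosome 10. They took 5 and 6 pairs on chromosome 15, 4 and 2 on chromosome 19, and 1 and 1 on each of chromosomes 6 and 13. These counts are small and were not tested. The WT peak was the wider one in every pair on chromosomes 4, 6, 7, 9, 10, 11, 13, 14, 15, 16 and 19. The median width ratio ran from 1.07 over the 3 pairs of chromosome 3 to 1.78 over the 10 pairs of chromosome 2.

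The 13 loci of chromosome 7 were spread from 16798003 to 148455505, with no shared locus within 100 kb of another. Their WT scores ran from 50.63 to 121.56 with a median of 73.1 over the pairs, and their D2018A scores from 53.1 to 103.79 with a median of 61.2. The D2018A peak lay inside the WT peak in 11 of these 13 pairs. The highest WT score there was at chr7:35988113-35989471, with a D2018A score of 58.53, and the highest D2018A score was at chr7:52949173-52949624, with a WT score of 93. These 2 pairs were named after their values were seen.

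The 11 pairs of chromosome 15 ran from 27703498 to 100767158. Apart from the WT peaks around chr15:78503229, their WT scores were at most 80.59, and the highest D2018A score was 95.66 at chr15:100314711-100315341 (WT score 77.78), a pair named after its values were seen. The 10 pairs of chromosome 2 held WT peaks of 465 to 800 bp and D2018A peaks of 252 to 564 bp, the latter with a median of 297.5 bp. The 6 pairs of chromosome 4 all lay between 130505698 and 151921707. The first WT peak of that chromosome was at 21789270 and the first D2018A peak at 3740882. How the other peaks of chromosome 4 were spread was not computed, so this position is not read as particular to the members.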

How the data were processed

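5hmC-Seal libraries of 2 WT and 2 D2018A lines and 1 input library per genotype were behind the 2 deposited peak lists. Reads had been trimmed (Trim Galore), aligned to mm9 (bowtie) and used for peak calling (MACS 1.4). The authors deposited positions and 1 score per peak, read here as 10 times the negative log10 of the caller's p. How lines were combined and the caller's settings were not given in the sources used here. There were 0 other columns of values. The depth is unknown and limits what a missing peak can show.

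Starts were written 1-based. Members were all pairs of WT and D2018A peaks with at least 1 bp in common outside chromosomes 5, 8 and X, with no filter on score. Ranks were taken within the whole list, tied scores taking the best rank. Shares have 95% Wilson intervals and medians 95% binomial (order statistic) intervals, which cover counting error only. No test was run, since the members were chosen from the same lists. The members, rules and lists were chosen with earlier results of these data known. The script was tested on simulated lists. Alternatives were 50% overlap of both peaks, gaps up to 1000 bp, scores of at least 60 or 100, merging within 1000 bp, all chromosomes and 1 pair per locus. Limits of 70 and 80 on the score were added after seeing the data.

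Regions were named by rule. The rule took the 6 highest scores of each list, the 4 largest rank gaps each way, the 3 widest and narrowest members, the 3 extreme overlaps, Jaccard indices and width ratios, loci that are not 1 to 1, loci within 10 kb of another and the 3 closest pairs without overlap. Peaks on chromosome 7 end at up to 151597125, past the 145441459 bp of that chromosome in the GRCm38 reference at hand, so it was not used for genes or sequences. Scripts ran in Python 3.11.15 with scipy 1.17.1, pandas 2.3.3, numpy 2.4.6 and, for plots, matplotlib 3.10.9.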

Additional observations from a re-analysis of the deposited data

How the results depend on the processing

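Of 90 recomputed values, 59 stayed within their interval (counts: within 1.5 times), 30 moved and 1 changed sign. The main values were 109 WT peaks, 110 D2018A peaks, 111 pairs and a rho of 0.24. With scores of at least 60 in both lists there were 42 WT and 42 D2018A peaks in 43 pairs, and rho was 0.51. In limits chosen after seeing the data, rho was 0.33 with scores of at least 70 (18 pairs) and -0.018 with scores of at least 80 (7 pairs). With scores of at least 100 there were 3 shared peaks in either list and 3 pairs, 8.11% of WT peaks were shared and the median width ratio was 1.07. No rank correlation was computed from 3 pairs. With all chromosomes there were 187 WT peaks, 189 D2018A peaks and 190 pairs, and 22.5% of D2018A peaks were shared. With 50% of both peaks overlapping, 9.64% of WT and 13.6% of D2018A peaks were shared, the median width ratio was 1.31 and the median distance between centres 42 bp. Fewer or more peaks entering by construction account for the counts, and the cause of the other changes was not tested. With gaps up to 1000 bp, the median distance between centres was 84.5 bp and the D2018A peak lay inside the WT peak in 54.4% of 136 pairs. Merging within 1000 bp and 1 pair per locus moved none of the values recomputed. The other changes were in median scores and widths and in the share of pairs with the wider peak in WT, with limits on the score or all chromosomes. No paired analysis was possible because the lists merge the lines of a genotype and the lines carry different numbers. No line could be left out either. As the depth is unknown, 5hmC in a region with no peak is not excluded.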
